A study of Mus musculus with 9 samples.

Results

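Levels of 8 genes of the NF-kB pathway were followed across the single-cell libraries: Nfkbia, Tnfaip3, Nfkb1, Nfkb2, Relb, Ikbke, Birc3 and Icam1. They were taken by symbol, and each symbol matched 1 of the 32286 rows of the feature table, so that all 8 genes were found. The libraries were 5′ single-cell RNA sequencing libraries of whole primary tumours, grown from 168FARN mouse mammary tumour cells injected into the mammary fat pad of female BALB/c mice. Of 9 libraries, 3 came from WT tumours, 3 from tumours whose injected cells carried a Kmt2c knockout (Kmt2c KO) and 3 from tumours whose injected cells carried a Kmt2d knockout (Kmt2d KO). Kmt2c and Kmt2d encode histone methyltransferases that act at enhancers. The cells of all 3 groups carried H2BMc, a histone H2B reporter fused to mCherry. The knockouts were made by transient transfection of Cas9 with a pool of guides against the first exon and by sorting of a cell population, with no single-cell cloning described, so that each knockout is 1 edited population. Endothelial cells and macrophages belong to the host mouse and carry no knockout. Numbers 1 to 3 only name libraries within a group, and the sources used here name no litter, batch or day of a library. The p-values set differences between groups against the spread between these libraries. With 1 edited population per knockout, they cannot tell the knockout from other differences of that population.

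NF-kB is a family of dimeric transcription factors that wait in the cytoplasm, bound by inhibitor proteins such as the product of Nfkbia. Signals from tumour necrosis factor, interleukin 1 or Toll-like receptors activate a kinase complex that marks the inhibitor for destruction, and the freed dimer enters the nucleus. Among the genes it switches on are its own inhibitors and subunits, so that the transcripts of this feedback loop are often read as a sign of pathway activity. In endothelial cells and macrophages the pathway is best known for the expression of adhesion molecules, cytokines and chemokines.

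NF-kB dimers bind a short DNA element, the kB site. The 250 bases before the transcription start were searched in the promoters given by RefSeq (assembly GRCm38.p6), which held 6 of the 8 genes in 9 promoters and did not list Nfkb1 and Relb. A narrow motif (GGGA, any base and TTTCC, or GGGG, any base and TTTCC) and the wider decameric kB consensus, which includes it, were searched on both strands. The promoters with a match next to the start are shown because they belong to 3 feedback genes of the pathway (matches are in capitals, and the last base printed is the one before the start):
Nfkbia, chr12:55492648-55492897, minus strand: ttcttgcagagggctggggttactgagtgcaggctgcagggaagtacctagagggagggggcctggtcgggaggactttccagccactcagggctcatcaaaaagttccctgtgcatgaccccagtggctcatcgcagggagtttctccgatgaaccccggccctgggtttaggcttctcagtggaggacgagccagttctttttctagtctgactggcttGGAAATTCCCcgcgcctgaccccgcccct
Tnfaip3, chr10:19015411-19015660, minus strand: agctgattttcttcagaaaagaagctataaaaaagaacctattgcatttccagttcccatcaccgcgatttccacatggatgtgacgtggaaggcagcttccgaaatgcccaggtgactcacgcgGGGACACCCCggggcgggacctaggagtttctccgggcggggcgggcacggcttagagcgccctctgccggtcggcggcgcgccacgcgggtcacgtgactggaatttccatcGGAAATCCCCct
Nfkb2, chr19:46304487-46304736, plus strand: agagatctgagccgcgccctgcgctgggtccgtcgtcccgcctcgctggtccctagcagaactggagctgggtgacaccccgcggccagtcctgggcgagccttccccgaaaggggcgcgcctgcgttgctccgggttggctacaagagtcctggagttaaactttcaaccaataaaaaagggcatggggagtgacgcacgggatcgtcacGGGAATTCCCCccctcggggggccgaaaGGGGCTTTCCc
The Nfkbia window held 1 match, from base -29 to base -20, which reads GGGAATTTCC on the other strand. The Tnfaip3 window held GGAAATCCCC from base -12 to base -3, which reads GGGGATTTCC on the other strand, and a match of the wider consensus from base -125 to base -116. In Nfkb2, GGGGCTTTCC lay from base -11 to base -2 and overlapping matches of the wider consensus from base -39 to base -29. Of the other Nfkb2 promoters, 1 held GGGACTTTCC from base -225 to base -216 and 1 a match of the wider consensus from base -236 to base -227, and a further Tnfaip3 promoter held neither motif. No window of Birc3, Icam1 or Ikbke held either motif. Of all 32851 promoter windows in the table, 0.356% held the narrow motif beginning with GGGA, 0.365% that beginning with GGGG and 7.25% held the wider consensus. A match is a run of letters and not a measured binding site, and no match says only that these letters are not in the window.

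Levels are given in CPM: the unique molecular identifiers (UMIs, each standing for 1 captured transcript) of a gene per 1000000 UMIs summed over the cells of 1 class in 1 library. Tumour cells were taken as cells with at least 1 H2BMc UMI and none of the immune gene Ptprc or of the endothelial genes Pecam1 and Cdh5, which gave 15235 of the 58645 cells kept, between 335 and 3142 per library. Endothelial cells (408, between 28 and 67 per library) and macrophages (566, between 18 and 157) were gated on 8 markers each. These sums held 8935073 to 43005352 UMIs per library in tumour cells, 168811 to 490629 in endothelial cells and 102070 to 426055 in the macrophages of the 7 libraries with at least 20 of them. WT library 1 (18 macrophages) and Kmt2d KO library 3 (19 macrophages) entered no macrophage test. The limit on mitochondrial counts removed 50.7% of barcodes from WT library 1 and 68.5% from WT library 3. Among the tumour cells, 155 cell barcodes occurred in 2 or more libraries (312 cells), and none did among endothelial cells or macrophages.

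The classes carried the marker transcripts of their names, with exceptions in tumour cells and in 1 macrophage library. Krt8, a keratin, stood at 224 to 570 CPM in tumour cells, but the other epithelial check genes were nearly absent, with 27 UMIs of Krt18 and 1 UMI of Epcam in all. The endothelial check genes Eng, Egfl7, Ramp2 and Plvap summed to 5818 to 7026 CPM in endothelial cells and to 50.7 to 99.9 CPM in tumour cells. The macrophage check genes Tyrobp, Lyz2, Ctss, Cd68 and Fcer1g summed to 11828 to 20515 CPM in macrophages and to 6.88 to 19.4 CPM in tumour cells. The dendritic cell genes Ccr7, Flt3 and Xcr1 summed to 153 CPM in macrophages of Kmt2c KO library 3, of which Ccr7 made up 136 CPM, and to 0 to 18.2 CPM in macrophages of the other libraries. Transcripts of the targeted genes were not lowered in every knockout library. In tumour cells Kmt2c was at 44.5, 42.9 and 58.3 CPM in Kmt2c KO against 48.7, 49.2 and 48.6 in WT, so that libraries 1 and 2 lay below WT and library 3 above. Kmt2d was at 26.2, 31.8 and 24.9 CPM in Kmt2d KO against 21.7, 19.2 and 14.2 in WT, higher in every library. Such counts do not read the edited bases and check nothing about the edit.

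In tumour cells the 2 inhibitor genes were higher in Kmt2c KO than in WT libraries. Nfkbia, which encodes the inhibitor IkBa, was at 343, 506 and 524 CPM in Kmt2c KO, 342, 301 and 222 CPM in Kmt2d KO and 204, 285 and 311 CPM in WT libraries. Every Kmt2c KO library lay above every WT library, whereas the Kmt2d KO libraries spread over the WT range and past it. Nfkbia rose 1.71-fold in Kmt2c KO (log2 fold change 0.78 ± 0.21 (SE), adjusted p = 0.0298). Tnfaip3 encodes A20, a ubiquitin-editing enzyme that dampens signalling to NF-kB. It was at 2.77, 4.12 and 7.13 CPM in Kmt2c KO, 2.89, 3.09 and 1.67 CPM in Kmt2d KO and 0.980, 2.16 and 1.34 CPM in WT libraries. The 3 Kmt2c KO libraries again lay above all WT libraries, and Kmt2d KO overlapped both groups. Its rise in Kmt2c KO was 2.99-fold (1.58 ± 0.42, adjusted p = 0.0250), but with each cell thinned to 2000 UMIs, where few Tnfaip3 UMIs remain, the log2 fold change was 0.73 (adjusted p = 0.584).

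**Figure D1:**
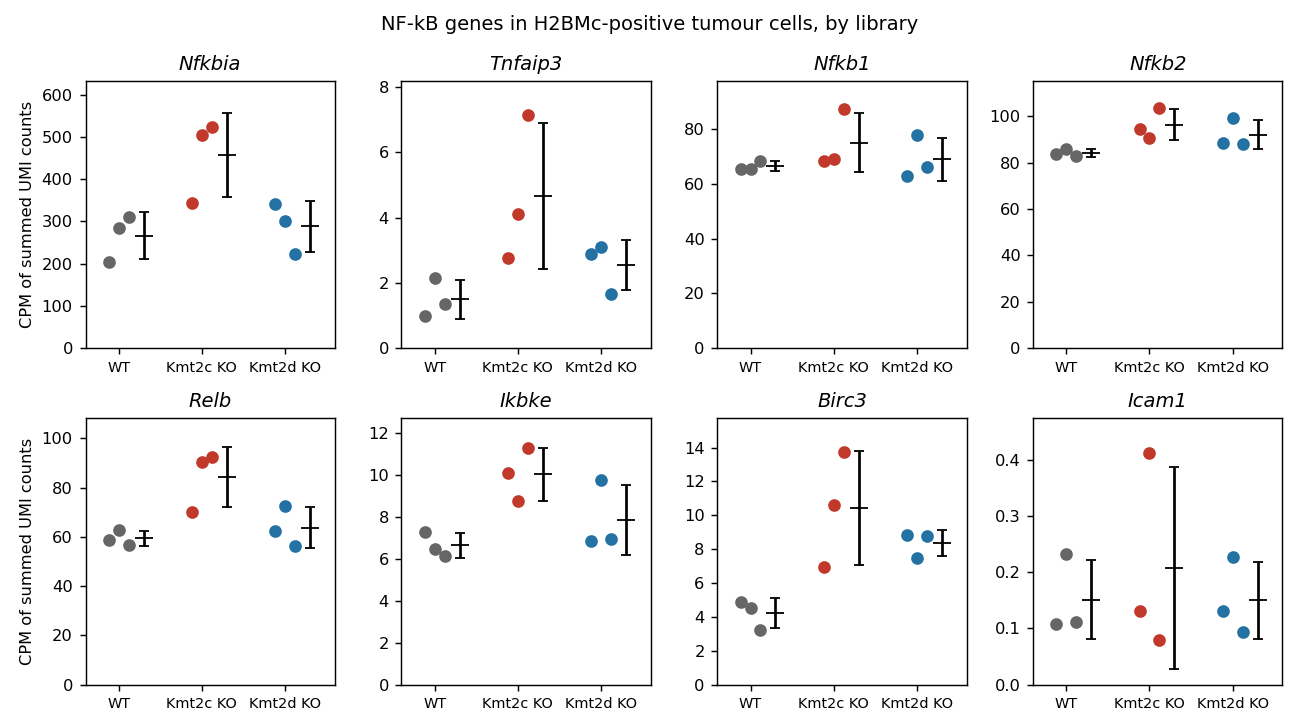
Levels of the 8 genes in tumour cells, 1 panel per gene, with genotype on the horizontal axis and CPM on the vertical axis. Each point is 1 library, and the line and bar give the mean and SD of 3 libraries. In Nfkbia, Tnfaip3, Nfkb2, Relb, Ikbke and Birc3 the 3 Kmt2c KO points lie above the 3 WT points, and in Nfkb1 and Icam1 they overlap.

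Of the 3 subunit genes, Relb rose and the Nfkb1 and Nfkb2 differences did not pass the test. Relb encodes the subunit that pairs with p52 in the non-canonical arm of the pathway, and was at 70.3, 90.2 and 92.3 CPM in Kmt2c KO, 62.4, 72.6 and 56.2 CPM in Kmt2d KO and 58.9, 62.7 and 56.7 CPM in WT libraries. All Kmt2c KO libraries lay above all WT libraries, and Kmt2d KO library 2 lay within the Kmt2c KO range. Relb rose 1.42-fold in Kmt2c KO (0.50 ± 0.13, adjusted p = 0.0197). Nfkb2, the gene of p100 and p52, was at 94.8, 90.7 and 104 CPM in Kmt2c KO, 88.6, 99.3 and 88.3 CPM in Kmt2d KO and 83.7, 86.0 and 83.0 CPM in WT libraries. Both knockouts lay above WT without overlap, but by log2 fold changes of 0.19 ± 0.08 (adjusted p = 0.105) and 0.10 ± 0.08 (adjusted p = 0.578). Nfkb1, the gene of p105 and p50, was at 68.4, 69.2 and 87.4 CPM in Kmt2c KO, 63.0, 77.7 and 66.1 CPM in Kmt2d KO and 65.5, 65.3 and 68.5 CPM in WT libraries. The groups overlapped, and the Kmt2c KO difference was 0.17 ± 0.10 (adjusted p = 0.273).

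Birc3 and Ikbke, which act in signalling, rose in Kmt2c KO tumour cells. Birc3 encodes cIAP2, a ubiquitin ligase at the tumour necrosis factor receptors that also restrains cell death, and was at 6.97, 10.6 and 13.7 CPM in Kmt2c KO, 8.83, 7.50 and 8.79 CPM in Kmt2d KO and 4.90, 4.56 and 3.25 CPM in WT libraries. In CPM all 6 knockout libraries lay above all 3 WT libraries, but with cells thinned to equal depth they did not. Mean Birc3 UMIs per thinned cell were 0.0205, 0.0247 and 0.0371 in Kmt2c KO and 0.0194, 0.0183 and 0.0265 in Kmt2d KO libraries. In WT libraries they were 0.0239, 0.0118 and 0.00604, the first from 10 cells with a UMI. Without thinning, the rise in Kmt2c KO was 2.44-fold (1.29 ± 0.24, adjusted p = 0.00647). It was called in 10 of 11 alternatives other than leaving out a library, where the lowest log2 fold change was 0.97. In Kmt2d KO the fitted difference was 1.93-fold (0.95 ± 0.24) and missed the threshold (adjusted p = 0.0780), although it passed under DESeq2 (adjusted p = 0.00965). Ikbke encodes IKK-epsilon, a kinase related to the IkB kinases, and was at 10.1, 8.76 and 11.3 CPM in Kmt2c KO, 6.86, 9.76 and 6.95 CPM in Kmt2d KO and 7.29, 6.49 and 6.16 CPM in WT libraries. Kmt2c KO lay above WT in every library and rose 1.51-fold (0.60 ± 0.16, adjusted p = 0.0266). Icam1, a target gene whose product binds leukocyte integrins, had 35 UMIs over all tumour cells (0.0793 to 0.412 CPM per library) and did not pass the filter on low counts.

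Thus 7 of the 8 genes were tested in tumour cells, and 5 of the 7 rose in Kmt2c KO, against 9.87% of all 13764 genes tested that rose and 19.2% that changed in either direction. Libraries of Kmt2c KO lay wholly above those of WT for 6 of the 7 genes and for 20.5% of all genes. The median log2 fold change was 0.60 over the 7 genes and 0.00 over all genes. The count rested on few libraries: 1 of the 7 genes was called without Kmt2c KO library 3 or without WT library 1, and 2 were called without Kmt2c KO library 2, WT library 2 or WT library 3, where Birc3 was among the calls each time and all 5 fitted changes stayed positive. Calls among all genes fell too, from 2639 to 1200 without WT library 2, the lowest of the fits with 1 library left out.

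In Kmt2d KO tumour cells none of the 7 genes was called against WT by edgeR, where 2.03% of all genes changed in either direction and 1 of the 7, Birc3, had an unadjusted p below 0.05, as did 17.0% of all genes. Libraries lay wholly above WT for Birc3 and Nfkb2, against 13.4% of all genes. The median over the 7 genes was 0.10. Kmt2d KO library 2 stood above the other 2 Kmt2d KO libraries in Nfkb1, Nfkb2, Relb, Ikbke and Tnfaip3, between them in Nfkbia and below them in Birc3. Without it, 1 of the 7 genes was called, Birc3 (1.02, adjusted p = 0.0401), in a fit that called 697 of all genes in place of 280. Kmt2d KO was also set against Kmt2c KO directly. No gene of the 13764 was called by edgeR there (0% of the genes), with 2459 genes (17.9%) and 4 of the 7 at an unadjusted p below 0.05, and DESeq2 called 530 genes and 2 of the 7. Fitted values were lower in Kmt2d KO for all 7, from -0.91 ± 0.35 for Tnfaip3 (adjusted p = 0.216) and -0.70 ± 0.21 for Nfkbia (adjusted p = 0.146) to -0.10 ± 0.08 for Nfkb2 (adjusted p = 0.535). Leaving out Kmt2d KO library 2 gave 3 calls among the 7 and 2599 among all genes. The comparisons with WT share the WT libraries, so that their values are given side by side and not as independent results.

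Other transcripts in the same cells also stood higher or lower by genotype. A list of 11 genes induced by dissociation and stress, among them Fos, Jun, Junb, Egr1 and Hspa1b, summed in tumour cells to 1581, 2508 and 2442 CPM in Kmt2c KO, 1350, 1642 and 1305 CPM in Kmt2d KO and 1327, 1542 and 1974 CPM in WT libraries. All 11 were detected, with Atf3 (0.196 to 0.786 CPM) and Hspa1a (0.218 to 6.27 CPM) the lowest. Kmt2c KO libraries 2 and 3 were highest in this sum and overlapped WT through library 1. The 8 macrophage gate markers summed to 11.5, 16.7 and 13.2 CPM in tumour cells of Kmt2c KO, 3.45, 10.9 and 5.58 of Kmt2d KO and 6.20, 3.86 and 4.59 of WT libraries, against 10270 to 17135 CPM in macrophages. Of these markers Adgre1 had 14 UMIs and Csf1r 85 UMIs over all tumour cells. Krt8 was at 224 to 337 CPM in Kmt2c KO, 303 to 461 CPM in Kmt2d KO and 544 to 570 CPM in WT libraries. H2BMc was at 146 to 155, 93.1 to 119 and 73.8 to 115 CPM in the same order. Because the gate required at least 1 H2BMc UMI per cell, its CPM depends on the UMI number per cell. The H2BMc values are therefore no free comparison of genotypes. The median UMI number per tumour cell was 8469, 10374 and 11390 in Kmt2c KO, 11018, 12881 and 14311 in Kmt2d KO and 18930, 13514 and 23820 in WT libraries, so that Kmt2c KO lay wholly below WT. With each cell thinned to 2000 UMIs, 2 of the 7 genes and 876 of all genes were called in Kmt2c KO. Nfkbia was 1 of the 2, and Tnfaip3 was not. The 2 need not both be among the 5 genes called without thinning, since Nfkb2 was also called in 1 of 11 alternatives. The part of the differences of transcripts and depth in the NF-kB results was not tested.

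**Figure D2:**
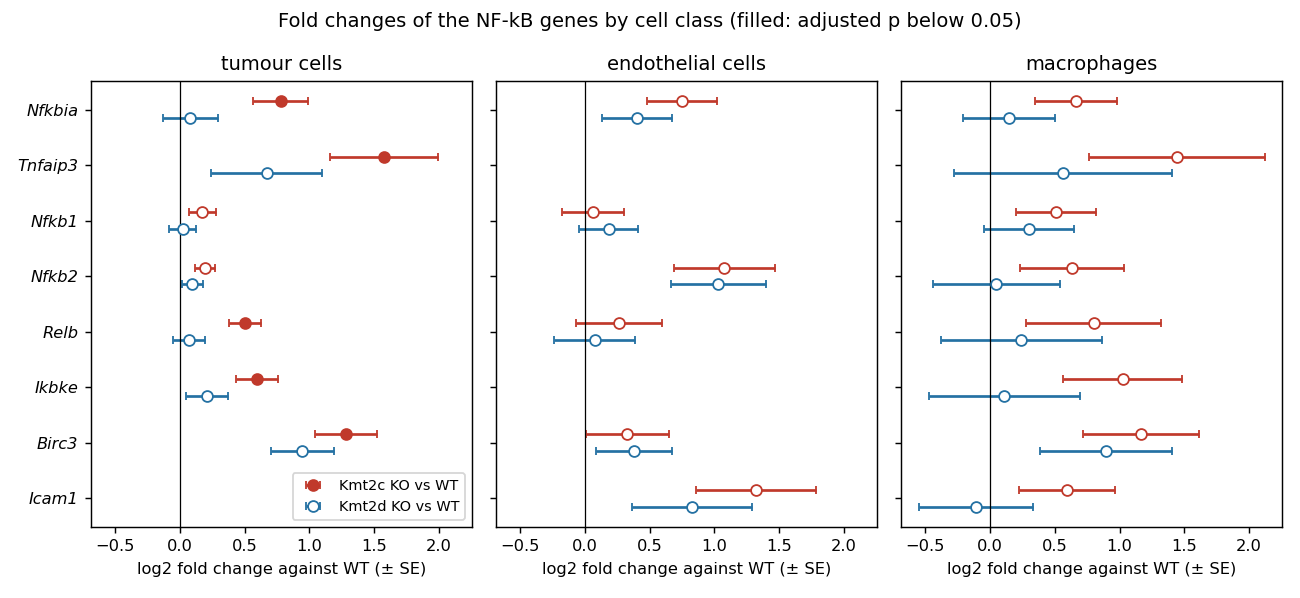
Log2 fold changes of the 8 genes against WT in tumour cells, endothelial cells and macrophages, Kmt2c KO and Kmt2d KO side by side, with SE bars on a log2 axis. Filled points passed the test at an adjusted p below 0.05, which holds for Nfkbia, Tnfaip3, Relb, Ikbke and Birc3 in Kmt2c KO tumour cells and for no point of the other classes or of Kmt2d KO.

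A wider list of 87 pathway genes, the 8 included, was sorted by role into 5 subunits, 13 inhibitors, 25 kinases and adaptors, 18 ligands and receptors and 26 targets. The list, like the 8 genes, was chosen with earlier results of these data known. Shares of either set beside those of all genes are therefore a description. In tumour cells 69 of the 87 were tested, and 25 rose and 1 fell in Kmt2c KO, which is 37.7% of them against 19.2% of all genes. Leaving aside the 8 genes, 20 rose and 1 fell of 62 (33.9%). The median log2 fold change of the 69 was 0.28. Without Kmt2c KO library 2 or 3, 12 genes of the list rose, without WT library 1 or 2 11 did, and without WT library 3 13 did. Calls among all genes fell from 2639 to 1200 without WT library 2. In Kmt2d KO none of the 69 was called by edgeR (2.03% of all genes were, median of the 69 0.10), and DESeq2 called 6 higher, with 647 calls among all genes.

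The inhibitors had the largest share of rises, 7 of 12 tested (58.3%), where 19.2% of all genes changed in either direction. Bcl3, an IkB-like nuclear cofactor of p50 and p52, was at 22.2, 39.6 and 38.6 CPM in Kmt2c KO and 11.1, 15.5 and 13.0 CPM in WT libraries (1.33 ± 0.27, adjusted p = 0.00912). Nfkbiz, a further nuclear IkB protein, was at 29.7, 46.9 and 60.6 CPM against 15.2, 19.1 and 21.4 CPM (1.29 ± 0.38, adjusted p = 0.0375). Groups did not overlap in either gene, and in Nfkbiz Kmt2d KO library 2 reached 43.1 CPM while the other Kmt2d KO libraries stood at 19.1 and 14.5 CPM. Zc3h12a, which encodes the ribonuclease Regnase-1 that degrades inflammatory transcripts, rose by 0.79 ± 0.16 (adjusted p = 0.00985), and Nfkbie, the gene of IkBe, by 0.75 ± 0.15 (adjusted p = 0.00776).

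Among 25 kinases and adaptors 6 rose and 1 fell. Irak2, a kinase-like adaptor below the interleukin 1 and Toll-like receptors, was at 18.0, 21.7 and 23.9 CPM in Kmt2c KO and 8.27, 10.0 and 9.96 CPM in WT libraries (1.16 ± 0.18, adjusted p = 0.00273). Rnf31, a subunit of the linear ubiquitin ligase, rose by 0.70 ± 0.16 (adjusted p = 0.0154), and Myd88, the adaptor of the same receptors, by 0.66 ± 0.15 (adjusted p = 0.0131). Traf5, a signal adaptor of tumour necrosis factor receptors, fell by 0.61 ± 0.13 on the log2 scale (adjusted p = 0.0108), from 27.9, 31.1 and 27.0 CPM in WT to 16.6, 19.2 and 20.5 CPM in Kmt2c KO libraries. Of 9 ligands and receptors tested, 2 rose (22.2%), a share near the 19.2% of all genes that changed in either direction. They were Tlr3, a receptor of double-stranded RNA (1.01 ± 0.26, adjusted p = 0.0225), and Tnfrsf1b, a tumour necrosis factor receptor (0.73 ± 0.15, adjusted p = 0.0100). Of the 5 subunits, Rel passed the test beside Relb (0.38 ± 0.12, adjusted p = 0.0462), but was called in 3 of 9 fits with 1 library left out and in 3 of 11 other alternatives.

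Of 18 targets tested 8 rose (44.4%), where 19.2% of all genes changed in either direction. Saa3, an acute-phase gene, was at 2.51, 16.7 and 26.4 CPM in Kmt2c KO, 16.9, 7.20 and 0.0233 CPM in Kmt2d KO and 0.109, 0.309 and 0.224 CPM in WT libraries, the last from 1, 4 and 2 UMIs (6.03 ± 1.90 in Kmt2c KO, adjusted p = 0.0484). Lcn2, an iron-sequestering protein of the acute phase, was at 17.3, 36.1 and 43.0 CPM in Kmt2c KO, 31.2, 26.3 and 0.907 CPM in Kmt2d KO and 0.327, 1.86 and 0.224 CPM in WT libraries (5.12 ± 1.22, adjusted p = 0.0168). In both genes Kmt2d KO libraries 1 and 2 stood with Kmt2c KO and library 3 with WT. Ptgs2, the gene of the prostaglandin-forming enzyme COX-2, rose by 2.88 ± 0.75 (adjusted p = 0.0232), and Lif, a cytokine of the interleukin 6 family, by 2.07 ± 0.62 (adjusted p = 0.0403). Several of these calls rested on single libraries. With 1 library left out in turn, Saa3, Lif and Nfkbiz were called in 4 of 9 fits, Ptgs2 and Tlr3 in 5 of 9, and Lcn2 and Rnf31 in 6 of 9. Saa3, Lif and Nfkbiz lost their call without Kmt2c KO library 2 or 3 or any 1 of the WT libraries, and Lcn2 without any 1 of the WT libraries, with log2 fold changes of 4.76 to 6.85 over the 9 fits. The value of Lif fell to 1.42 and that of Saa3 to 5.42 without Kmt2c KO library 3, Ptgs2 reached 3.49 without WT library 3, and Lcn2 reached 6.85 without WT library 2. Bcl3, Irak2, Tnfrsf1b, Nfkbie and Zc3h12a were called in 9 of 9 fits. Among other alternatives, the first 3 of these were called in 11 of 11, and Nfkbie and Zc3h12a in 10 of 11.

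**Figure D3:**
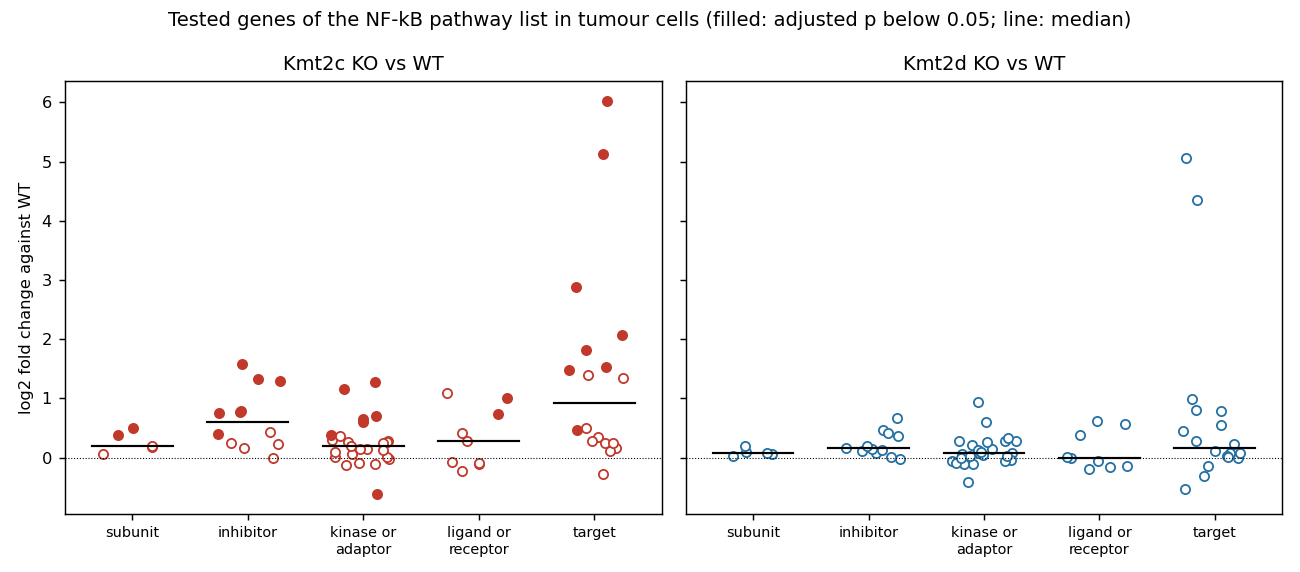
Log2 fold changes of Kmt2c KO (left) and Kmt2d KO (right) against WT in tumour cells for the 69 tested genes of the pathway list, sorted by role. Each point is 1 gene, filled points passed the test at an adjusted p below 0.05, and the line marks the median of the role. In Kmt2c KO filled points make up 7 of 12 inhibitors and 8 of 18 targets, and 1 filled point, among kinases and adaptors, lies below 0. In Kmt2d KO no point is filled.

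Endothelial cells of the host were read next, to see whether levels of the genes differed there with the genotype of the tumour cells. None of the 6 genes tested was called between Kmt2c KO and WT tumours by edgeR, where 5.61% of 5280 genes changed, and 3 of the 6 had an unadjusted p below 0.05 against 20.3% of all genes. Nfkbia was at 475, 618 and 604 CPM in Kmt2c KO, 332, 673 and 363 CPM in Kmt2d KO and 444, 337 and 253 CPM in WT libraries (0.75 ± 0.27 in Kmt2c KO, adjusted p = 0.125). Icam1 was at 109, 62.1 and 107 CPM, 35.3, 135 and 43.6 CPM, and 43.6, 47.8 and 20.4 CPM in the same order (1.32 ± 0.46, adjusted p = 0.112). Nfkb2 was at 51.5, 77.7 and 65.2 CPM, 60.0, 64.8 and 70.9 CPM, and 10.9, 45.3 and 36.7 CPM (1.08 ± 0.39, adjusted p = 0.123). In these 3 genes every Kmt2c KO library lay above every WT library, which 12.2% of all genes also showed. The Nfkb2 difference in Kmt2d KO was 1.03 ± 0.37 (adjusted p = 0.356).

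Nfkb1, Relb and Birc3 showed smaller differences in endothelial cells. Birc3 was at 51.5, 42.7 and 35.5 CPM in Kmt2c KO, 45.9, 49.8 and 43.6 CPM in Kmt2d KO and 32.7, 37.7 and 34.6 CPM in WT libraries (0.33 ± 0.32 in Kmt2c KO, adjusted p = 0.667), with the Kmt2c KO and WT groups overlapping. In Kmt2d KO the Birc3 difference was 0.38 ± 0.29 (adjusted p = 0.766). Nfkb1 differed in Kmt2c KO by 0.06 ± 0.24 and Relb by 0.26 ± 0.33. Tnfaip3 had 24 UMIs in all and Ikbke 1, so that neither passed the filter on low counts. In Kmt2d KO none of the 6 was called (0.0379% of all genes were), 1 having an unadjusted p below 0.05 (9.70% of all genes had), and Kmt2d KO library 2 was the highest of all 9 libraries in Nfkbia, Icam1 and Tnfaip3. The stress list summed to 2123 CPM in endothelial cells of that library, the highest of the 9, against 879 to 1526 CPM in the others, and its part in these levels was not tested. Without Kmt2d KO library 2, 2 of the 6 genes were called in Kmt2c KO against WT, in a fit that called 592 of all genes in place of 296.

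Of the pathway list 36 genes were tested in endothelial cells, and 4 rose in Kmt2c KO (11.1%), against 5.61% of all genes that changed. Ccl2, a chemokine that draws monocytes, was at 206, 435 and 124 CPM in Kmt2c KO, 74.1, 105 and 60.0 CPM in Kmt2d KO and 46.3, 35.2 and 10.2 CPM in WT libraries (3.20 ± 0.47, adjusted p = 0.00199). Irf1, a transcription factor induced by interferon and NF-kB, was at 366, 311 and 391 CPM, 127, 319 and 150 CPM, and 59.9, 108 and 126 CPM (1.84 ± 0.33, adjusted p = 0.00579). The Kmt2c KO libraries stood above WT without overlap in both, and Ccl2 and Irf1 passed the test under every alternative tried. The fibroblast genes Col1a1, Col1a2, Dcn and Pdgfrb, all detected, summed in endothelial cells to 0, 159 and 77.0 CPM in Kmt2c KO, 7.06, 29.9 and 21.8 CPM in Kmt2d KO and 24.5, 2.52 and 16.3 CPM in WT libraries, and the macrophage check genes to 45.8, 66.0 and 82.9 CPM, 7.06, 24.9 and 13.6 CPM, and 49.0, 25.2 and 40.8 CPM. Kmt2c KO library 2 had both the highest fibroblast sum and the highest Ccl2 level, and without it the Ccl2 difference was 2.48 (adjusted p = 0.0166), in a fit that kept Kmt2c KO library 3, whose fibroblast sum was above that of every Kmt2d KO and WT library. The part of these markers in the Ccl2 levels was not tested. Csf1, the growth factor of macrophages, rose by 2.22 ± 0.53 (adjusted p = 0.0261) and Bcl3 by 1.26 ± 0.33 (adjusted p = 0.0366). Each was called in 4 of 9 fits with 1 library left out. Under other alternatives Csf1 was called in 7 of 7 and Bcl3 in 5 of 7. The count of list genes called higher fell to 2 without Kmt2c KO library 2 or any of the 3 WT libraries, and rose to 9 without Kmt2d KO library 1 and 12 without Kmt2d KO library 2.

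In macrophages all 8 genes were tested, over 3 Kmt2c KO, 2 Kmt2d KO and 2 WT libraries. None was called in Kmt2c KO against WT by edgeR (2.65% of 3704 genes were), 3 had an unadjusted p below 0.05 (14.4% of all genes had), and all 8 fitted values were positive, from 0.51 ± 0.31 for Nfkb1 to 1.45 ± 0.68 for Tnfaip3, with a median of 0.73 against 0.00 over all genes. Birc3 came nearest to the threshold (1.16 ± 0.45, adjusted p = 0.202), at 140, 137 and 139 CPM in Kmt2c KO, 48.9 and 179 CPM in Kmt2d KO and 58.8 and 66.6 CPM in WT libraries. Nfkbia was at 318, 465 and 303 CPM in Kmt2c KO, 220 and 293 CPM in Kmt2d KO and 304 and 190 CPM in WT libraries (0.66 ± 0.32, adjusted p = 0.359). Birc3, Nfkb1 and Nfkb2 lay apart and higher in Kmt2c KO, where 15.5% of all genes did so with these group sizes, and Nfkbia overlapped. Tnfaip3 overlapped too, at 9.34, 95.8 and 79.8 CPM in Kmt2c KO and 39.2 and 20.5 CPM in WT libraries, with Kmt2c KO library 1 the lowest. Ikbke was at 37.4, 92.9 and 101 CPM in Kmt2c KO and 39.2 and 46.1 CPM in WT libraries (1.03 ± 0.46, adjusted p = 0.305), and Icam1 at 159, 137 and 141 CPM against 137 and 71.7 CPM (0.60 ± 0.37, adjusted p = 0.509). The stress list summed in these macrophages to 1990, 3866 and 2326 CPM in Kmt2c KO, 2677 and 2081 CPM in Kmt2d KO and 1568 and 1838 CPM in WT libraries, and the median mitochondrial share was 3.42, 3.78 and 3.29%, 4.25 and 3.97%, and 5.34 and 5.93%. In both measures the Kmt2c KO libraries lay wholly apart from WT, and Kmt2c KO library 2 had the highest stress sum and the highest Nfkbia, Tnfaip3 and Relb levels. The part of these measures, or of the dendritic cell genes in Kmt2c KO library 3, in the macrophage values was not tested.

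In Kmt2d KO macrophages none of the 8 was called (0.0540% of all genes were, none of the 8 at an unadjusted p below 0.05 against 6.53% of all genes), and fitted values ran from -0.11 ± 0.44 for Icam1 to 0.89 ± 0.51 for Birc3. Between the 2 knockouts no tested gene of the 8 was called in endothelial cells (0.0947% of all genes were) or in macrophages (0.0540%), nor had any an unadjusted p below 0.05 (9.68% and 9.31% of all genes had), and Nfkbia, Nfkb2 and Icam1 lay wholly lower in Kmt2d KO macrophages, as 12.7% of all genes did. DESeq2 called none of the 8 genes in either host class in any of the 3 contrasts. Of 50 pathway genes tested, 2 rose in Kmt2c KO macrophages, a share (4.0%) near the 2.65% of all genes that changed: Irf1 (1.58 ± 0.33, adjusted p = 0.0167) and Cd40, a costimulatory receptor of the tumour necrosis factor receptor family (1.75 ± 0.42, adjusted p = 0.0356). Irf1 was at 364, 395 and 368 CPM in Kmt2c KO and 98.0 and 154 CPM in WT libraries, and no library of one group reached the other. Neither was called without Kmt2c KO library 2 or 3 or without either WT library, Irf1 alone was called without Kmt2c KO library 1, and 6 genes of the list were called without Kmt2d KO library 1 or 2. In tumour cells Irf1 was at 127, 161 and 175 CPM in Kmt2c KO, 61.5, 116 and 55.7 CPM in Kmt2d KO and 42.7, 43.7 and 45.1 CPM in WT libraries (1.81 ± 0.24, adjusted p = 0.00140), a value added here, after it was seen, because Irf1 passed in the other classes.

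The classes themselves were compared next. With each library as its own control, 7 of the 8 differed between endothelial and tumour cells, where 67.9% of 8892 genes did, 6 between macrophages and tumour cells (64.4% of genes) and 6 between macrophages and endothelial cells (50.4%). The counts include Icam1, too low to be tested within tumour cells, and Tnfaip3 and Ikbke, too low within endothelial cells. These 3 genes entered the joint fit through classes where they are higher, so that no conclusion is drawn from the counts. Nor is any drawn from their p-values against the class where they were too low. The medians over all genes in these comparisons were -0.10, -0.18 and -0.06 on the log2 scale. Icam1 set the host classes apart from tumour cells: over all libraries it was at 55.8 CPM in endothelial cells, 116 CPM in macrophages and 0.170 CPM in tumour cells, ratios of 328 (95% exact counting interval 226 to 489) and 685 (476 to 1011). Its lowest host library, at 20.4 CPM in endothelial cells, lay above the highest tumour library, at 0.412 CPM. Macrophages also exceeded endothelial cells in Icam1 (0.79 ± 0.27, adjusted p = 0.0137), a call lost without Kmt2d KO library 1 (0.71) and without WT library 3 (adjusted p = 0.0684).

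Birc3 followed the same order at all 3 steps, with 8.52 CPM in tumour cells, 40.3 CPM in endothelial cells and 112 CPM in macrophages. Such class levels are pooled over all cells of a class, so that libraries with more UMIs weigh more, and the median of the 9 libraries in macrophages was 66.6 CPM for Birc3, 46.1 CPM for Ikbke and 39.2 CPM for Tnfaip3. The steps were 2.56 ± 0.23 from tumour to endothelial cells (adjusted p = 4.94e-12) and 1.27 ± 0.27 from endothelial cells to macrophages (adjusted p = 0.000115). Ikbke instead was lowest in endothelial cells: 1 UMI was found there (0.369 CPM), against 8.49 CPM in tumour cells and 67.6 CPM in macrophages, ratios of 23.0 (4.12 to 909) and 183 (32.2 to 7293). These intervals cover counting error only. Tnfaip3 was at 3.12 CPM in tumour cells, 8.86 CPM in endothelial cells, where 1 library held none, and 55.8 CPM in macrophages. It differed by 1.85 ± 0.48 between endothelial and tumour cells (adjusted p = 0.00105), a call lost without Kmt2d KO library 2 (0.97, adjusted p = 0.287), without Kmt2c KO library 2 (1.503, adjusted p = 0.0534) and in the exact sign permutation test over libraries (0.99, adjusted p = 0.117). It differed by 2.02 ± 0.51 between macrophages and endothelial cells (adjusted p = 0.00109). Since Tnfaip3 was too low to be tested within endothelial cells and entered the joint fit through other classes, both values are a description.

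The subunit genes and Nfkbia varied less between classes. Nfkb1 stood at 70.6 CPM in tumour cells, 124 CPM in endothelial cells and 212 CPM in macrophages, and each step passed the test (0.87 ± 0.11 and 0.64 ± 0.15). Nfkb2 was highest in tumour cells, at 92.3 CPM against 50.2 CPM in endothelial cells and 67.6 CPM in macrophages (-0.78 ± 0.14 and -0.55 ± 0.18 relative to tumour cells). The macrophage call was lost without Kmt2d KO library 2 and without WT library 3 (-0.46, adjusted p = 0.0952), and the host classes did not differ beyond their spread (0.23 ± 0.23, adjusted p = 0.451). Relb was at 70.5, 64.3 and 84.8 CPM in tumour cells, endothelial cells and macrophages, with no difference past the threshold. Nfkbia was at 416 CPM in endothelial cells, 344 CPM in tumour cells and 298 CPM in macrophages. The endothelial level was above that of tumour cells in the fit (0.46 ± 0.11, adjusted p = 0.000550), but in 7 of 9 libraries, and the call was lost in the exact sign permutation test over libraries (adjusted p = 0.0521). Macrophages were below endothelial cells (-0.74 ± 0.16, adjusted p = 0.000163), and tumour cells and macrophages were not separated by the test (-0.29 ± 0.15, adjusted p = 0.0937). The latter difference was called in 2 of 9 fits with 1 library left out, and in the fit without the filter on low counts (adjusted p = 0.00281).

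**Figure D4:**
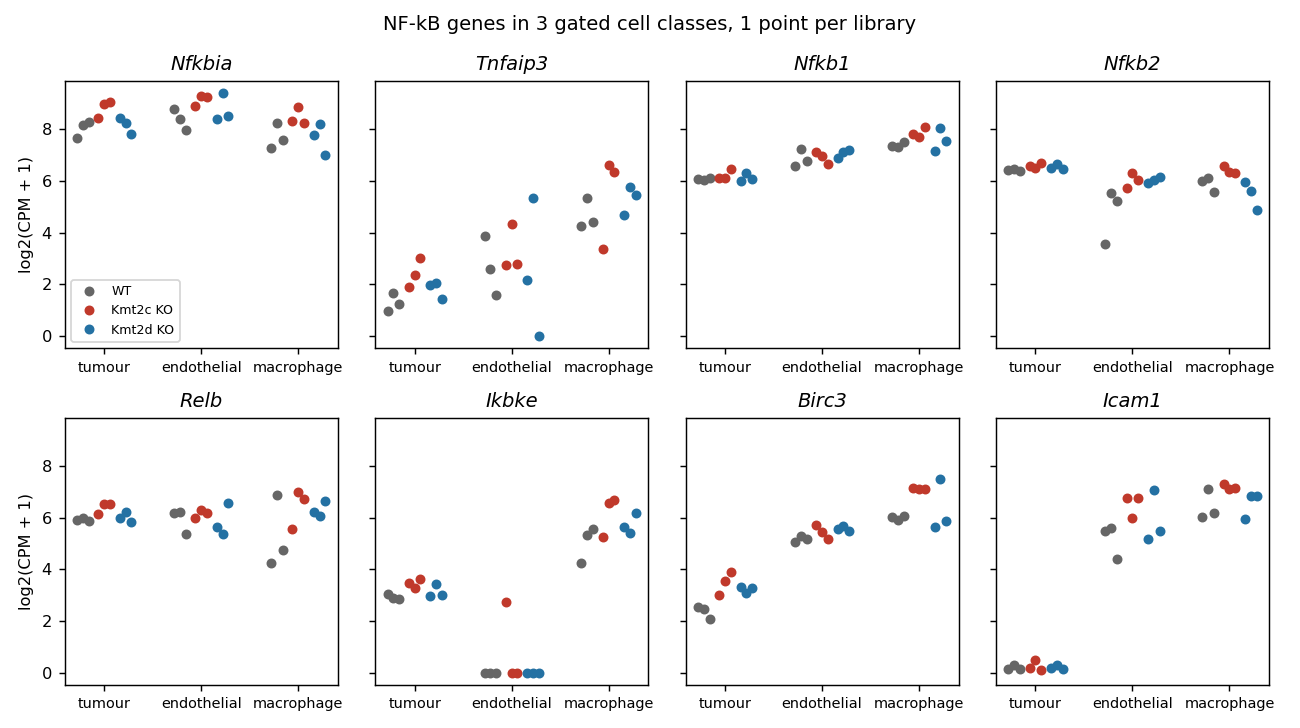
Levels of the 8 genes per library in tumour cells, endothelial cells and macrophages, as log2(CPM + 1) on the vertical axis. Each point is 1 library, coloured by genotype, with the 2 macrophage libraries of under 20 cells included. Icam1 lies near 0 in tumour cells and at 20.4 CPM or more in both host classes, Ikbke is at 0 in 8 of 9 endothelial libraries, and the Relb levels of the 3 classes overlap.

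Whether the effect of a knockout differed between classes was tested with interaction terms. None of the 8 genes was called in any of the 4 terms, in which 2.52% (Kmt2c KO, endothelial against tumour cells), 0.225% (Kmt2d KO, endothelial against tumour cells), 1.44% (Kmt2c KO, macrophages against tumour cells) and 0.135% (Kmt2d KO, macrophages against tumour cells) of the genes were called. Nfkb2 alone had an unadjusted p below 0.05, in both endothelial terms: its endothelial effect exceeded that in tumour cells by 0.85 ± 0.37 in Kmt2c KO (adjusted p = 0.284) and by 0.91 ± 0.34 in Kmt2d KO (adjusted p = 0.459). Ikbke, with 1 UMI in endothelial cells, could not be judged there: its Kmt2c KO term was 6.22 ± 5.04 and its Kmt2d KO term had no SE. Icam1, with 35 UMIs in tumour cells, had an SE of up to 2.49 (Kmt2c KO, macrophages). The rises called in tumour cells alone are therefore not shown to differ from those of the host cells. For Ikbke in endothelial cells the terms could not decide this.

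Shares of cells with a UMI were set on equal depth by thinning each cell to 2000 UMIs, which kept 14760 tumour cells, 352 endothelial cells and 336 macrophages. Icam1 was then seen in 0.0407% of tumour cells (95% exact interval 0.0149 to 0.0885), 9.38% of endothelial cells (6.54 to 12.9) and 19.9% of macrophages (15.8 to 24.6). Tnfaip3 was seen in 0.657% (0.533 to 0.801), 0.568% (0.0689 to 2.04) and 10.1% (7.11 to 13.9) of the same classes. These intervals pool the cells of all libraries, cover counting error only and are no test between classes. By library the thinned Tnfaip3 share ran from 0 to 1.03% in tumour cells, 0 to 3.45% in endothelial cells and 0 to 20.6% in macrophages. Of the 34 macrophages with a Tnfaip3 UMI, 13 came from Kmt2c KO library 2 and 11 from Kmt2c KO library 3. Another 3 libraries, with 16 to 21 thinned macrophages each, held none, so that the thinned macrophage shares overlapped those of the other classes. In CPM the lowest macrophage library (9.34) lay above the highest tumour library (7.13), and endothelial libraries ran from 0 to 39.9. The thinned Icam1 share ran by library from 0 to 0.172% in tumour cells, 0 to 26.1% in endothelial cells and 6.25 to 28.6% in macrophages. No share from empty droplets was set beside these values, so that the part of free RNA in them was not tested. Unthinned shares were 0.171%, 22.8% and 23.1% for Icam1 and 3.26%, 5.15% and 11.8% for Tnfaip3, where median depth per library ran from 8469 to 23820 UMIs per tumour cell, 3248 to 8332 per endothelial cell and 1748 to 4242 per macrophage.

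Across the 9 libraries the 7 genes measured in tumour cells were joined in 1 mean standardized level (each gene's log2(CPM + 1) less its mean, over its SD). It was 0.27, 0.71 and 1.73 in Kmt2c KO, -0.23, 0.53 and -0.56 in Kmt2d KO and -0.93, -0.62 and -0.90 in WT libraries. Kmt2d KO library 2 stood above Kmt2c KO library 1, and the WT libraries were the lowest 3. Of 8665 other genes with a mean of at least 10 CPM over the libraries, those most like it over the 9 libraries by Pearson's r were Vps8 (0.986), Zbtb7a (0.984), March7 (0.980), Klf7 (0.980) and Lpin2 (0.980). Such values are a description: the libraries fall into genotype groups, and many genes share their differences of depth and composition.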

How the data were processed

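Whole tumours were digested, stored frozen as suspensions per the labels, cleared of dead cells on Percoll and run on a 10x Chromium 5′ kit. The authors deposited 1 matrix of UMI counts per gene and cell barcode, made with Cell Ranger 7.0.1 on mm10 per the submitters' processing notes. Neither the annotation nor any thinning to a common depth during aggregation is given in the sources used. Each barcode's suffix gave its library and the aggregation table its genotype letter (C for Kmt2c KO, D for Kmt2d KO, X for WT, as in the names of its comparisons), which cannot be matched to the replicate numbers of the labels.

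Cells with over 500 and under 7500 genes and under 15% mitochondrial counts, the study's limits, were kept: 58645 of 89147 barcodes. Endothelial cells had UMIs of at least 3 of Pecam1, Cdh5, Kdr, Emcn, Cldn5, Flt1, Tie1 and Esam and none of H2BMc, Krt8 or Ptprc. Macrophages had UMIs of at least 3 of 8 macrophage markers, among them complement C1q genes, of which at least 1 of Adgre1, Csf1r and Fcgr1, and none of H2BMc, Krt8 or Cdh5. No doublet caller was run, and leaving out the 5% of gated cells with the most UMIs was an alternative. Counts were summed per library and class, because cells are not replicates, and libraries with under 20 cells were left out. Library pairs of a group differed by more than sampling noise.

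Sums were tested in R 4.3.3 with edgeR 4.0.16 (filterByExpr, TMM, glmQLFit, glmQLFTest), all libraries of a class in 1 fit with genotype as factor. SE is the absolute log2 fold change divided by the square root of F. P-values were adjusted by Benjamini-Hochberg over all genes tested (13764, 5280 and 3704 in tumour cells, endothelial cells and macrophages), and genes with an adjusted p below 0.05 were called. All adjusted p are from this test unless DESeq2 1.42.0, an alternative, is named. Classes and interactions were fitted with the library as a block. The steps were tested on simulated data. Further alternatives were other scalings, filters, gates, thinning and leaving out each library.

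The 8 genes, the pathway list, the markers and the tests were chosen with earlier results of these data known. Other pathway genes were named per contrast and role if called and not overlapping between groups, up to 4 by size of change. Intervals cover counting error only.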

Additional observations from a re-analysis of the deposited data

How the results depend on the processing

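No paired analysis was possible because the names in the aggregation table do not carry the replicate numbers of the labels. Counts of the 8 genes called in Kmt2c KO tumour cells against WT fell from 5 to 3 with at least 2 H2BMc UMIs per cell and to 2 with cells thinned to 2000 UMIs, and ran from 1 to 5 with 1 library left out. Birc3 was called in all 9 of those fits and in 10 of 11 other alternatives, Nfkbia in 5 and 11, Tnfaip3 in 5 and 9, Relb in 4 and 10 and Ikbke in 4 and 9. Nfkb2, not among the 5, was called in 0 and 1, so that such counts need not hold the same genes. For Kmt2d KO against WT the count was 1 under DESeq2, without a filter on low counts and in a fit of only these 2 groups (0 to 1 with 1 library left out), and for Kmt2d KO against Kmt2c KO it was 2 under DESeq2 and 2 without the filter (0 to 3).

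The pathway list had 11 genes higher in Kmt2c KO tumour cells after thinning (11 to 34 with 1 library left out), and in Kmt2d KO 6 under DESeq2, 6 without the filter and 1 with only 2 groups (0 to 3). All genes called numbered 2639, 280 and 0 in the 3 tumour contrasts (Kmt2c KO against WT, Kmt2d KO against WT and Kmt2d KO against Kmt2c KO). With 1 library left out they ran from 1200 to 3959, 101 to 697 and 0 to 2599, and under other alternatives from 876 to 3459, 60 to 647 and 0 to 683.

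In endothelial cells 2 of the 8 genes were called in Kmt2c KO without the filter (0 to 2 with 1 library left out, and 0 to 1 for Kmt2d KO against Kmt2c KO), and 10 of the list (2 to 12). Calls among all genes rose from 296 to 562 without the filter. Among all genes in macrophages, the 98 calls became 62 under DESeq2 and 281 with at least 2 gate markers. In macrophages the list count of 2 became 1 under DESeq2, without TMM and without the 5% of cells with most UMIs, 6 without the filter, and 5 with at least 2 gate markers or at least 10 cells per library (0 to 6 with 1 library left out). Shares of cells with a UMI, unthinned, were 3.26% for Tnfaip3 and 0.171% for Icam1 in tumour cells and 5.15% and 22.8% in endothelial cells, since deeper cells hold more UMIs. Relb differences between classes changed sign. Endothelial less tumour cells they were 0.033 without Kmt2d KO library 2 and 0.043 without WT library 3 (-0.26 to 0.043 with 1 library left out). Macrophages less tumour cells they were -0.0030 as a mean of library differences and -0.22 without WT library 2 (-0.22 to 0.44), and macrophages less endothelial cells -0.13 without WT library 2 (-0.13 to 0.40). The cause of these changes was not tested. Sums were smaller in host cells (168811 to 490629 UMIs in endothelial cells, 102070 to 426055 in macrophages) than in tumour cells, and fewer genes passed the filter on low counts there.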

Other observations

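Transcripts of the pathway could also be followed from cell to cell within a library. In tumour cells thinned to 2000 UMIs, and in libraries with at least 20 cells holding a UMI of the splitting gene, the mean Nfkbia count in cells with a Relb UMI was 1.26 to 1.86 times that in cells without one, above 1 in 9 of 9 libraries. Split by Nfkb2 the ratio was 0.972 to 1.75 (above 1 in 8 of 9 libraries), split by Nfkb1 0.479 to 1.61 (7 of 9) and split by Birc3 1.16 to 3.43 (6 of 6). Split by Tnfaip3 it was 2.69 to 5.31 (3 of 3 libraries, with 20 to 22 such cells each). The limit of 20 cells left only knockout libraries in the splits by Birc3 and Ikbke and only Kmt2c KO libraries in that by Tnfaip3. Under the limit, the Birc3 ratio was 0.544 and 0.710 in WT libraries 1 and 2 (10 cells each) and 2.84 in WT library 3 (2 cells). Splits by Ikbke gave 0.526 to 1.03 (above 1 in 2 of 6), by Rela, the gene of the p65 subunit, 0.698 to 1.29 (6 of 9) and by Kmt2c 0.764 to 1.23 (2 of 9). The level of Krt8 split by Relb was 0.738 to 1.11 (above 1 in 1 of 9 libraries), by Birc3 0.354 to 0.964 (0 of 6), by Tnfaip3 0.625 to 0.973 (0 of 3), by Nfkb1 0.661 to 1.28 (5 of 9), by Nfkb2 0.865 to 1.26 (4 of 9), by Ikbke 0.503 to 1.197 (3 of 6), by Rela 0.784 to 1.19 (6 of 9) and by Kmt2c 0.779 to 1.01 (1 of 9). These values were chosen after the data were seen, and cells of 1 library are not replicates, so that they are given as a description with no test.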
